A study of Mus musculus with 15 samples.

Results

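The miRNAs described here are mouse (mmu) miR-10a, miR-10b, miR-196a and miR-196b, which are encoded within or beside the HOX gene clusters. All rows of the deposited table named mmu-miR-10a-, mmu-miR-10b-, mmu-miR-196a- or mmu-miR-196b-, with either arm, were taken, which gave 8 of its 1424 mature miRNAs. Small RNA was sequenced in 15 libraries from whole lungs of C57BL/6 mice. The mice were homozygous for R213G or wild type (WT) at extracellular superoxide dismutase (EC-SOD), the antioxidant enzyme of the extracellular space. Lungs were taken 7 days after 1 intratracheal dose. The groups were R213G bleomycin (n = 4), R213G PBS (n = 4), WT bleomycin (n = 4) and WT PBS (n = 3). Bleomycin, a DNA-damaging drug that injures the lung, was given in phosphate-buffered saline (PBS) as 100 uL at 1 U/mL, and the PBS groups received PBS alone. The labels name no cell type-specific driver for R213G. Every group had the instillation, and all lungs were flushed through the right ventricle. The labels give an age of 11 weeks and dosing at 8 to 12 weeks. Both sexes were used, and which mouse was of which sex is not recorded in the labels. Nothing in the labels ties each library to its own mouse, so p-values measure the spread between these libraries.

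HOX genes set the identity of body segments along the head-to-tail axis, and the miRNA genes among them are transcribed with regional patterns like those of their neighbours. Mature miR-10 and miR-196 pair through their seed, bases 2 to 8, with target mRNAs, and both families are known to repress HOX transcripts, with miR-196 directing cleavage of the Hoxb8 mRNA. In endothelium, miR-10a is also known as a brake on NF-kB signalling.

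The mature sequences show why these miRNAs form 2 families and why reads of close relatives are hard to separate. Sequences are from RefSeq (mouse GRCm38.p6), 5′ to 3′, with the seed in capitals, and all 8 members were matched there. The abundant 5p arms and, for miR-10, the 3p arms read:
mmu-miR-10a-5p: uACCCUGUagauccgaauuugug
mmu-miR-10b-5p: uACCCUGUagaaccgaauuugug
mmu-miR-196a-5p: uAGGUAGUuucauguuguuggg
mmu-miR-196b-5p: uAGGUAGUuuccuguuguuggg
mmu-miR-10a-3p: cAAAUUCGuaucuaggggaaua
mmu-miR-10b-3p: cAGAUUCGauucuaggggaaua
Counted from 1 at the 5′ end, miR-10a-5p and miR-10b-5p differ by U12A, and miR-196a-5p and miR-196b-5p by A12C, both outside the seed. The 3p arms of miR-10 differ by A3G, U9A and A10U, the first of which changes the seed. Among the 1199 miRNAs of the table with a sequence, ACCCUGU was the seed of miR-10a-5p and miR-10b-5p and of no other, and AGGUAGU that of miR-196a-5p and miR-196b-5p and of no other. The rule by which the authors assigned reads that fit both members of a pair is not stated in the labels or files. A part of each level may belong to its relative.

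In the GENCODE annotation of GRCm38, Mir10a lies at chr11:96317165-96317274 on the plus strand, between genes, 993 bp from Hoxb4. Mir10b lies at chr2:74726070-74726137 on the plus strand, in introns of Hoxd4 and of a longer Hoxd3 transcript. Mature miR-196a-5p comes from 2 loci with the same mature sequence. Mir196a-1, at chr11:96265164-96265265 on the plus strand, lies between genes, 6192 bp from Hoxb9. Mir196a-2, at chr15:102973350-102973434 on the plus strand, lies in an intron of a Hoxc5 transcript, 1457 bp from Hoxc10 and 3005 bp from Hoxc9. Mir196b, at chr6:52230081-52230165 on the minus strand, lies within Hoxa9 and is exonic in 2 of the 3 transcripts that span it. The values cannot divide miR-196a-5p between its loci.

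Values below are log2 of 1 plus an equalized count, and differences are on the same log2 scale. That unit was inferred from the values. The library sums lay between 18087289.8 and 24759615.3 equalized counts, which are not read depths. The value of a single read, estimated from the most frequent low value, lay between 0.666 and 1.349 equalized counts per library. Lung markers were abundant in all libraries: miR-126a-3p and miR-126a-5p of endothelium together lay at log2 19.63 to 20.17 in R213G bleomycin, 20.01 to 20.18 in R213G PBS, 20.02 to 20.06 in WT bleomycin and 19.75 to 20.24 in WT PBS. WT PBS replicate 3 stood apart in striated muscle miRNAs, with miR-133a-3p at 16.24 and miR-206-3p at 7.03. In the other 14 libraries miR-133a-3p reached at most 14.81 and miR-206-3p at most 3.65. Members were called at an adjusted p under 0.05 in limma across 818 miRNAs, those above 5 equalized counts in 3 or more libraries. Of the 8 members, 6 passed this filter. In WT, bleomycin changed 26.7% of tested miRNAs (16.4% higher, 10.3% lower) and 4 of the 8 members, 1 higher and 3 lower. In R213G it changed 42.1% of tested miRNAs (22.2% higher, 19.8% lower) and 4 of the 8 members, all lower. These counts are no evidence about the family, since 1 member entered the test only through the groups where it was high.

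miR-10a-5p was among the most abundant lung miRNAs, while both miR-196 members were scarce. miR-10a-5p ranked 2 to 3 in every library, with 7.14% to 10.9% of the library sum. miR-10b-5p ranked 28 to 56, with 0.214% to 0.675% of the sum. miR-196b-5p held 13.1 to 55.0 equalized counts and miR-196a-5p 0.767 to 21.1. Both 5p arms of miR-10 are 23 bases long and both 5p arms of miR-196 are 22 bases long. The order miR-10a-5p, miR-10b-5p, miR-10a-3p held in every library with gaps of several log2 units. miR-10b-3p and miR-196a-5p overlapped in both bleomycin groups and were apart in both PBS groups. miR-196b-5p lay above miR-196a-5p in every library but WT bleomycin replicate 3, where the values were 4.42 and 4.47.

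**Figure D1:**
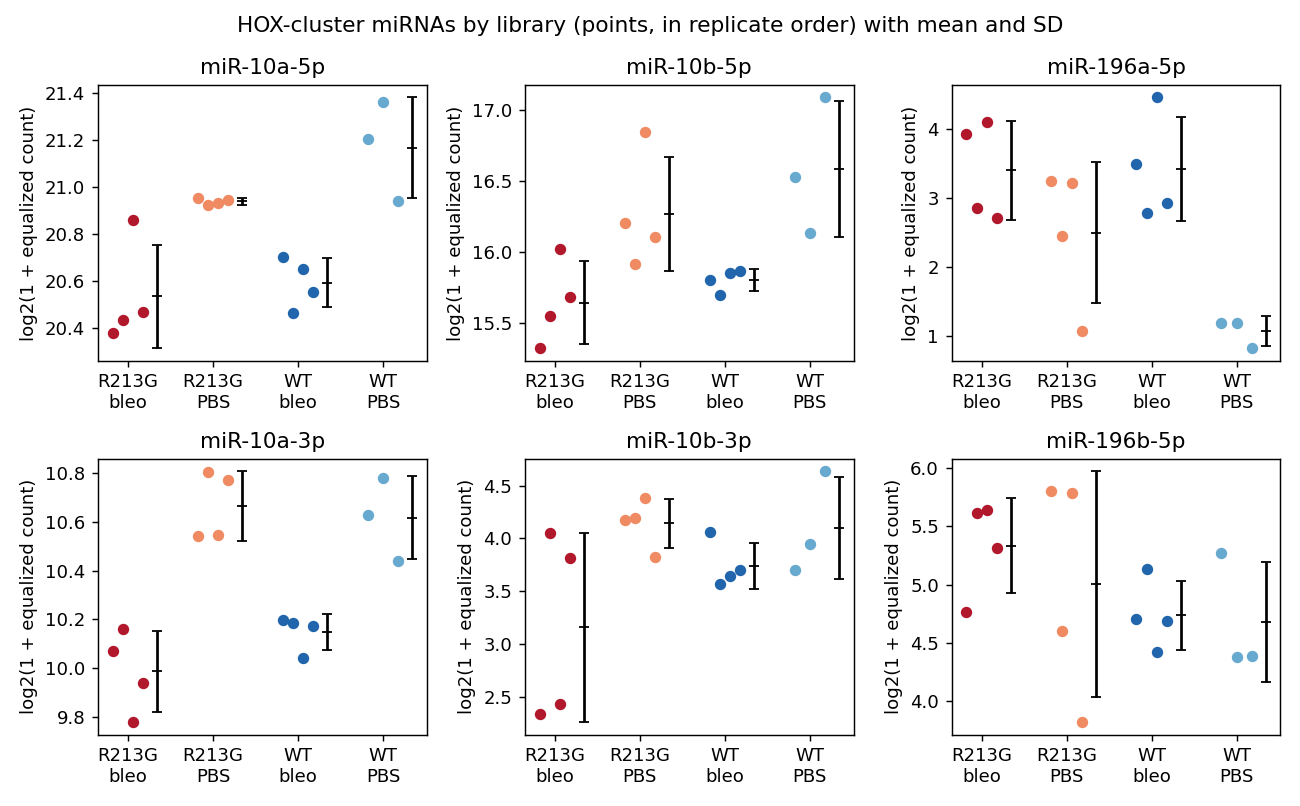
Levels of the 6 tested members, as log2 of 1 plus the equalized count (y axis, a separate scale in each panel), in R213G bleomycin, R213G PBS, WT bleomycin and WT PBS lungs (x axis). Each point is a library in replicate order, and the bar beside it is the group mean with its SD (n = 4, or 3 for WT PBS). For miR-10a-5p, bleomycin libraries lie between 20.38 and 20.86 and PBS libraries between 20.92 and 21.36, while miR-196a-5p lies at 1.20 or below in WT PBS.

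mmu-miR-10a-5p was lower after bleomycin in both genotypes as deposited, though in R213G the difference was 0.041 under quantile normalization, which keeps only ranks. miR-10a-5p ranked 3 in every R213G library but bleomycin replicate 3, where it ranked 2. In WT it stood at 20.70, 20.47, 20.65 and 20.55 in bleomycin lungs, against 21.20, 21.36 and 20.94 in PBS lungs. In R213G it stood at 20.38, 20.43, 20.86 and 20.47 in bleomycin lungs, against 20.96, 20.92, 20.93 and 20.95 in PBS lungs. Each bleomycin library lay below every PBS library of its genotype, with R213G bleomycin replicate 3 nearest to its PBS group. The difference was -0.57 ± 0.12 (SE) in WT (adjusted p = 0.00194, limma) and -0.40 ± 0.11 in R213G (adjusted p = 0.00795, limma). As a share of the library sum, miR-10a-5p averaged 7.86% in WT bleomycin and 10.4% in WT PBS lungs, with no overlap. It held 7.14% to 9.04% in R213G bleomycin and 8.75% to 9.20% in R213G PBS lungs, and these shares overlapped through R213G bleomycin replicate 3.

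Its 3p arm, miR-10a-3p, was lower as well. In WT it stood at 10.20, 10.19, 10.04 and 10.17 in bleomycin lungs, against 10.63, 10.78 and 10.44 in PBS lungs. In R213G it stood at 10.07, 10.16, 9.78 and 9.94 in bleomycin lungs, against 10.54, 10.81, 10.55 and 10.77 in PBS lungs. The groups did not overlap in either genotype. The difference was -0.47 ± 0.12 in WT (adjusted p = 0.00839, limma) and -0.68 ± 0.11 in R213G (adjusted p = 0.000248, limma). Leaving out WT PBS replicate 2 ended the WT call (-0.39, adjusted p = 0.0537). In the authors' deposited table, which holds an unequal-variance test and a rank test, the q-values of miR-10a-3p were 0.229 and 0.223 in WT and 0.0176 and 0.109 in R213G. In the authors' deposited table the q-values of miR-10a-5p were 0.226 and 0.223 in WT and 0.141 and 0.109 in R213G, by the same tests. Over all miRNAs, their rank test gave 0 q-values under 0.05 in WT and 0 in R213G. Their unequal-variance test gave 11 of 1384 in WT and 160 of 1408 in R213G. A rank-test q-value above 0.05 thus does not set a member apart from other miRNAs. The 5p arm exceeded the 3p arm by 10.5 ± 0.37 in R213G bleomycin, 10.3 ± 0.15 in R213G PBS, 10.4 ± 0.15 in WT bleomycin and 10.6 ± 0.046 in WT PBS lungs (log2 difference ± SD).

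mmu-miR-10b-5p was also lower after bleomycin, with a wider spread among PBS lungs. In WT it stood at 15.81, 15.69, 15.85 and 15.86 in bleomycin lungs, against 16.53, 16.13 and 17.09 in PBS lungs. In R213G it stood at 15.32, 15.54, 16.02 and 15.68 in bleomycin lungs, against 16.21, 15.92, 16.85 and 16.11 in PBS lungs. The groups were apart in WT and overlapped in R213G, and the highest library of each PBS group was replicate 3. The difference was -0.78 ± 0.22 in WT (adjusted p = 0.0142, limma) and -0.63 ± 0.20 in R213G (adjusted p = 0.0205, limma). Leaving out WT PBS replicate 3 ended the WT call (-0.53, adjusted p = 0.0725). Leaving out R213G bleomycin replicate 1 (-0.52, adjusted p = 0.0693) or R213G PBS replicate 3 (-0.44, adjusted p = 0.0774) ended the R213G call. With both PBS libraries numbered 3 left out, a choice made after seeing the data, the differences were -0.53 in WT (adjusted p = 0.0231) and -0.44 in R213G (adjusted p = 0.0245). In the authors' deposited table its q-values, by the unequal-variance test and the rank test, were 0.395 and 0.223 in WT and 0.177 and 0.175 in R213G. The reads of miR-10b-5p amounted to 2.66% to 6.94% of those of miR-10a-5p, with the highest ratio in WT PBS replicate 3.

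The scarce 3p arm, miR-10b-3p, held 4.04 to 23.9 equalized counts. In WT it stood at 4.06, 3.57, 3.64 and 3.70 in bleomycin lungs, against 3.70, 3.95 and 4.64 in PBS lungs. In R213G it stood at 2.33, 4.05, 2.43 and 3.81 in bleomycin lungs, against 4.17, 4.19, 4.38 and 3.82 in PBS lungs. The low R213G mean came from bleomycin replicates 1 and 3, while replicate 4 lay just below the lowest PBS value, and replicate 2 lay among the PBS values. The difference was -0.35 ± 0.39 in WT (adjusted p = 0.528, limma) and -0.98 ± 0.36 in R213G (adjusted p = 0.0358, limma). The WT value was -0.084 (adjusted p = 0.907) without WT PBS replicate 3 and -0.55 (adjusted p = 0.413) without WT PBS replicate 1. Without R213G bleomycin replicate 1 the R213G value was -0.71 (adjusted p = 0.122) and without replicate 3 it was -0.74 (adjusted p = 0.123). The call was also lost without R213G PBS replicate 1 (adjusted p = 0.0661), 2 (adjusted p = 0.0712) or 3 (adjusted p = 0.0848), and with equal library sums (-0.79, adjusted p = 0.109) or no filter (adjusted p = 0.066). It was lost too with array weights (-0.77, adjusted p = 0.0568) and with the 2 compared groups fitted alone (adjusted p = 0.0655). In the authors' deposited table its q-values, by the unequal-variance test and the rank test, were 0.631 and 0.453 in WT and 0.292 and 0.175 in R213G.

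The size of the miR-10 differences moved with the scaling of the libraries. Under equal library sums, which were tried after seeing the data, the median of all tested miRNAs shifted by 0.16 in WT and 0.21 in R213G, and under equal library medians by -0.12 and -0.13. The share of called miRNAs that were higher after bleomycin was 61.5% in WT as deposited, 83.0% with equal sums, 47.6% with equal medians and 51.4% with quantile normalization. In R213G it was 52.9% as deposited, 74.9% with equal sums and 42.7% with equal medians. In WT, miR-10a-5p was -0.40 with equal sums (adjusted p = 0.00142, limma), -0.69 with equal medians (adjusted p = 0.00202) and -0.16 with quantile normalization (adjusted p = 0.023). Quantile normalization gives every library the same value at a given rank. miR-10a-5p ranked 2 in every WT PBS and 3 in every WT bleomycin library. The -0.16 is thus only the gap between those ranks, without spread within either group. In R213G, miR-10a-5p was -0.19 with equal sums (adjusted p = 0.0524) and 0.041 with quantile normalization (adjusted p = 0.502). There it ranked 3 in every library but bleomycin replicate 3, where it ranked 2, so the 0.041 too follows from ranks alone. miR-10a-3p kept its call in R213G under equal sums (-0.46, adjusted p = 0.0086) but not in WT (-0.30, adjusted p = 0.116). For miR-10b-5p, equal sums gave -0.61 in WT (adjusted p = 0.0657) and -0.41 in R213G (adjusted p = 0.141), and quantile normalization gave -0.53 (adjusted p = 0.0642) and -0.44 (adjusted p = 0.0769).

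**Figure D2:**
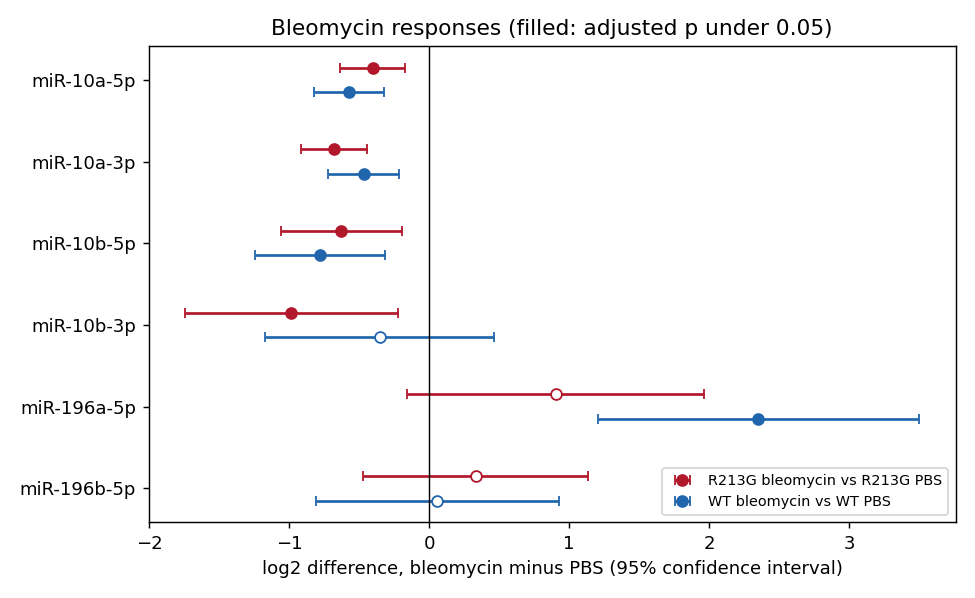
Differences between bleomycin and PBS lungs (x axis, log2 scale) for the 6 tested members (y axis), in R213G (red, upper of each pair) and WT (blue). Points are limma estimates with 95% confidence intervals, filled where the adjusted p was under 0.05. miR-10a-5p was -0.40 in R213G and -0.57 in WT as deposited, and 0.041 in R213G under quantile normalization, which keeps only ranks. miR-196a-5p was 0.90 in R213G and 2.35 in WT.

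Marker miRNAs of other cell types moved in the same contrasts. Of 6 striated muscle miRNAs, 5 were tested, and 2 fell in WT and 3 in R213G (1 and 2 with equal sums). Their summed level was log2 13.06 to 13.89 in WT bleomycin and 14.03 to 16.32 in WT PBS, and 12.11 to 13.14 in R213G bleomycin and 14.46 to 14.95 in R213G PBS. miR-206-3p, which is known from skeletal muscle, did not pass the filter. The muscle miRNA miR-133a-3p differed by -1.52 on the log2 scale in WT (adjusted p = 0.0121, limma) and by -2.18 in R213G (adjusted p = 0.0004, limma). Without WT PBS replicate 3, a choice made after seeing the data, its WT difference was -0.79 (adjusted p = 0.0404). Of the muscle miRNAs, 1 fell in WT without WT PBS replicate 1 or 2, and 2 to 4 fell in R213G with each library left out. Over the 15 libraries, the miRNAs whose levels were most like those of miR-10b-5p were miR-133a-3p (Pearson r = 0.88), miR-1a-3p (r = 0.87) and miR-1b-5p (r = 0.85), all of muscle. The r of deviations from group means was 0.73, 0.80 and 0.76. These are descriptions over libraries that share their treatment groups. The part of muscle RNA in the miR-10b-5p difference was not tested.

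**Figure D3:**
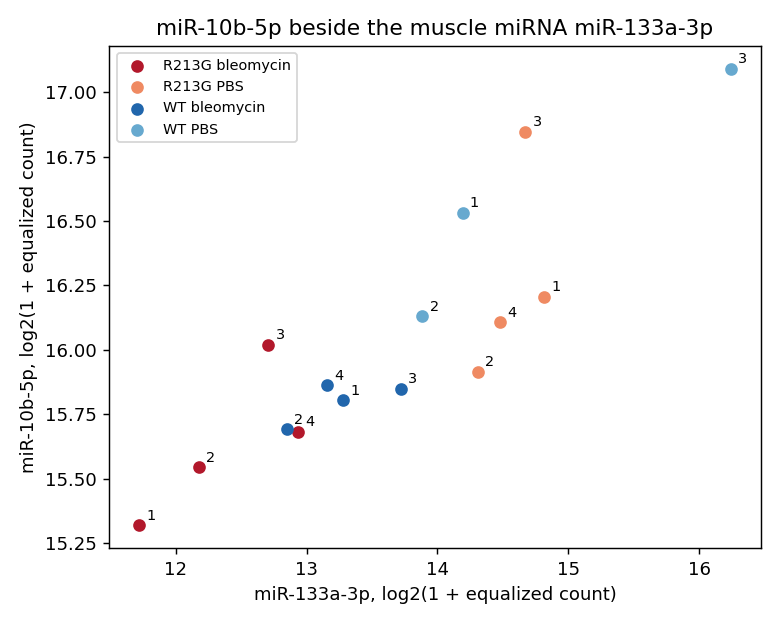
miR-10b-5p (y axis) against miR-133a-3p (x axis), both as log2 of 1 plus the equalized count, with each library labelled by its replicate number and coloured by group. WT PBS replicate 3 is highest on both axes, at 17.09 and 16.24, and R213G bleomycin replicate 1 lowest on both, at 15.32 and 11.72.

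miR-10a-5p had other neighbours. The miRNAs most like it over the 15 libraries were miR-203-3p (r = 0.92), known from epithelium, miR-30d-5p (r = 0.91) and miR-151-3p (r = 0.91), with r of deviations 0.76, 0.74 and 0.79. Of 8 epithelial miRNAs, 3 fell in WT and 6 in R213G with none higher, which became 1 and 2 with equal sums, and with quantile normalization 3 fell in each and 1 rose in R213G. Their summed level was log2 18.16 to 18.45 in WT bleomycin and 18.38 to 18.48 in WT PBS, and 18.04 to 18.39 in R213G bleomycin and 18.37 to 18.57 in R213G PBS. In whole lung, fewer cells of a type and less RNA per cell cannot be told apart, and the part of epithelial cells in the miR-10a difference was not tested. After removal of group means, miR-10a-5p and miR-10b-5p had an r of -0.02 over the 15 libraries, and miR-10a-5p and miR-10a-3p an r of -0.13.

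The miR-99 and miR-100 relatives of miR-10 resemble it in sequence but carry another seed. They lie outside the HOX clusters:
miR-100-5p: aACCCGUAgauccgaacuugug
miR-99a-5p: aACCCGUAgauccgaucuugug
miR-99b-5p: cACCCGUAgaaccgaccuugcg
miR-100-5p shares a run of 11 bases with miR-10a-5p, beginning at base 7 of miR-10a-5p. In each genotype 2 of the 3 relatives fell (1 with equal sums), with median differences of -0.42 in WT and -0.30 in R213G, beside 0.05 over all tested miRNAs in both. miR-100-5p was -0.47 in WT (adjusted p = 0.0012, limma) and -0.50 in R213G (adjusted p = 0.0003, limma). miR-99a-5p was -0.42 in WT (adjusted p = 0.0085, limma) and -0.30 in R213G (adjusted p = 0.0243, limma). miR-99b-5p was -0.21 in WT (adjusted p = 0.136) and -0.17 in R213G (adjusted p = 0.172). miR-615, which is also encoded in a HOX cluster, was scarce: miR-615-3p lay between 2.45 and 4.13, with differences of -0.33 in WT (adjusted p = 0.518) and -0.06 in R213G (adjusted p = 0.896), and miR-615-5p did not pass the filter.

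mmu-miR-196a-5p was higher after bleomycin in WT lungs, starting from about the value of a single read. In WT it stood at 3.50, 2.79, 4.47 and 2.94 in bleomycin lungs, against 1.20, 1.20 and 0.82 in PBS lungs. In equalized counts these were 10.3, 5.93, 21.1 and 6.65 in WT bleomycin, against 1.29, 1.29 and 0.767 in WT PBS, where a single read was worth 1.25, 1.28 and 0.812. The WT groups did not overlap. The difference was 2.35 ± 0.54 (adjusted p = 0.0039, limma; 95% confidence interval 1.21 to 3.50), and it was 1.30 with a pseudocount of 5 in place of 1 (adjusted p = 0.0095). It was 2.47 with equal sums, 2.24 with equal medians and 2.13 with quantile normalization, each past the threshold. Since the reads could not be recovered, no counting interval is given, and the size of this difference depends on the pseudocount. miR-196a-5p exceeded 5 equalized counts in 4 of 4 WT bleomycin and 0 of 3 WT PBS libraries, so it entered the test through the groups where it was high. In the authors' deposited table its q-value in WT was 0.109 by the unequal-variance test and 0.223 by the rank test.

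In R213G, miR-196a-5p did not pass the test. It stood at 3.94, 2.86, 4.11 and 2.72 in R213G bleomycin lungs, against 3.26, 2.46, 3.22 and 1.07 in R213G PBS lungs, and the groups overlapped. The difference was 0.90 ± 0.50 (adjusted p = 0.16, limma; 95% confidence interval -0.16 to 1.97), and it was 0.43 (adjusted p = 0.498) without R213G PBS replicate 4. The bleomycin groups had nearly the same mean, 3.41 ± 0.72 in R213G and 3.42 ± 0.76 in WT (SD, n = 4 each). The PBS groups averaged 2.50 ± 1.02 in R213G (n = 4) and 1.07 ± 0.22 in WT (n = 3). The difference between the 2 responses was -1.45 ± 0.74 and did not pass (adjusted p = 0.611, limma; 95% confidence interval -3.01 to 0.11), and the responses were not shown to differ between genotypes.

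mmu-miR-196b-5p, which has the same seed, did not pass in either genotype. In WT it stood at 4.70, 5.14, 4.42 and 4.69 in bleomycin lungs, against 5.28, 4.38 and 4.39 in PBS lungs. In R213G it stood at 4.77, 5.62, 5.64 and 5.32 in bleomycin lungs, against 5.81, 4.61, 5.79 and 3.82 in PBS lungs. The groups overlapped in both genotypes, and the lowest and highest of all 15 values were both in R213G PBS. The difference was 0.06 ± 0.41 in WT (adjusted p = 0.935, limma; 95% confidence interval -0.81 to 0.93) and 0.33 ± 0.38 in R213G (adjusted p = 0.503, limma). The sign of the WT value turned with equal medians (-0.060) and quantile normalization (-0.091). The log2 difference of miR-196a-5p minus miR-196b-5p averaged -1.93 ± 0.91 in R213G bleomycin, -2.50 ± 0.25 in R213G PBS, -1.31 ± 1.02 in WT bleomycin and -3.61 ± 0.45 in WT PBS lungs (SD). The 3p arms were at the limit of detection: miR-196a-2-3p was listed at 0 in 10 of 15 libraries and reached 1.33, and miR-196b-3p was listed at 0 in 3 and reached 1.53. Several of their values above 0 lay far below that of a single read. In R213G bleomycin replicate 1 they were 0.021 and 0.011 equalized counts, where a single read was worth 1.22.

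The seed of miR-196 is contained in let-7 one base further on:
let-7a-5p: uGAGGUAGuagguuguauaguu
miR-196a-5p shares with let-7a-5p the run AGGUAGU, which begins at base 2 in miR-196a-5p and at base 3 in let-7a-5p. Among the 9 tested let-7 and miR-98 miRNAs, 2 were higher in WT and the others did not pass, while in R213G 3 were higher, 1 was lower and 5 did not pass. With equal medians, 1 was higher and 2 lower in WT, and 2 were higher and 2 lower in R213G. With equal sums, 4 were higher and 0 lower in each genotype. Quantile normalization gave 3 higher and 1 lower in WT, and 4 higher and 0 lower in R213G. Over the 15 libraries, the miRNAs most like miR-196a-5p were miR-467e-3p (r = 0.85), miR-669f-5p (r = 0.82) and let-7e-5p (r = 0.79), and those most like miR-196b-5p were miR-297a-5p (r = 0.69), miR-25-3p (r = 0.69) and miR-7079-3p (r = 0.67).

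The rank of libraries in miR-196a-5p went with the tag numbers in the column names, whose meaning no source used here gives. In R213G, replicates 2 and 4 of each treatment carry higher numbers than replicates 1 and 3, so the higher-numbered and lower-numbered libraries can be compared apart from treatment. Within each of these subsets the bleomycin libraries precede the PBS libraries in number, so there tag order and treatment cannot be told apart. The higher-numbered libraries held 2.86 and 2.72 after bleomycin, against 3.94 and 4.11 in the lower-numbered. After PBS, the higher-numbered libraries held 2.46 and 1.07, against 3.26 and 3.22 in the lower-numbered. The lower-numbered libraries were thus the higher ones under each treatment. The difference of higher minus lower numbers was -1.36 ± 0.38 (unadjusted p = 0.0029, adjusted p = 0.142, limma; 95% confidence interval -2.17 to -0.54). This contrast was chosen with earlier results of these data known, so its p-values and interval are no independent evidence of a tag difference. The contrast called 0.244% of tested miRNAs, all lower in higher-numbered libraries, and none of the members. Within the 4 higher-numbered libraries the bleomycin difference of miR-196a-5p was 1.02 (adjusted p = 0.25, limma), and within the 4 lower-numbered it was 0.78 (adjusted p = 0.303, limma). Each of these differences sets 2 bleomycin against 2 PBS libraries. The WT libraries stayed in both fits, so the p-values rest largely on their spread.

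In WT the tag numbers run with treatment, and across genotypes they run with genotype, so tag order cannot be told apart from these comparisons. Within WT bleomycin, the 2 higher-numbered libraries held 2.79 and 2.94, against 3.50 and 4.47 in the lower-numbered. The value of a single read, which within a group is larger in a library with fewer reads, moved with the tags too. It was 0.666, 0.755, 0.898 and 0.752 in the higher-numbered R213G libraries, against 1.22, 1.26, 0.941 and 1.05 in the lower-numbered. miR-3966 and miR-28c followed miR-196a-5p most closely once group means were removed (r = 0.86 and r = 0.85), followed by miR-503-3p (r = 0.84). miR-3966 stood at 4.34, 3.63, 4.22 and 3.07 in the higher-numbered R213G libraries, against 6.67, 6.54, 7.43 and 6.60 in the lower-numbered. As miR-3966 was picked for following miR-196a-5p in these same libraries, its split by tag was largely fixed by that choice. The part of depth or of the tags in the miR-196a-5p values was not tested.

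**Figure D4:**
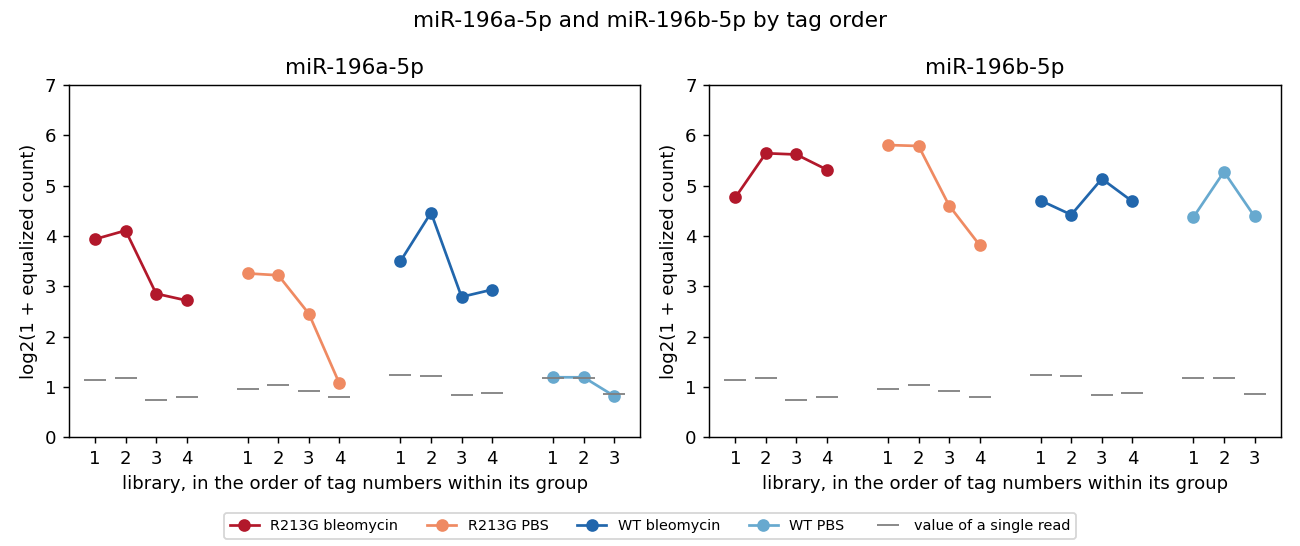
Levels of miR-196a-5p and miR-196b-5p (y axis, log2 of 1 plus the equalized count) with the libraries of each group placed by the order of their tag numbers (x axis). Grey dashes mark the value of a single read in that library, and lines join the libraries of a group. In R213G the 2 libraries with higher numbers lie below the other two for miR-196a-5p under each treatment, and the WT PBS libraries lie at about 1 read.

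The other members were also set out by tag order, with the WT libraries again in the fits and in their estimate of spread. Each difference again sets 2 bleomycin against 2 PBS libraries, and within a subset tag order and treatment cannot be told apart. Whether the responses differ between the subsets was not tested. miR-10b-3p had a bleomycin difference of -0.08 (adjusted p = 0.885, limma) within the 4 higher-numbered R213G libraries and of -1.89 (adjusted p = 0.00471, limma) within the 4 lower-numbered. miR-196b-5p gave 1.26 (adjusted p = 0.0309, limma) in the higher-numbered and -0.59 (adjusted p = 0.29, limma) in the lower-numbered. The arms of miR-10a had negative differences in each subset. miR-10a-5p was -0.49 (adjusted p = 0.0275, limma) in the higher-numbered and -0.32 (adjusted p = 0.203, limma) in the lower-numbered. miR-10a-3p was -0.74 (adjusted p = 0.0068, limma) in the higher-numbered and -0.62 (adjusted p = 0.019, limma) in the lower-numbered. miR-10b-5p was -0.40 (adjusted p = 0.217) in the higher-numbered and -0.86 (adjusted p = 0.0587) in the lower-numbered.

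No member passed the test between genotypes. R213G PBS against WT PBS called none of the 818 miRNAs (0%, 44 at an unadjusted p under 0.05 in limma), and R213G bleomycin against WT bleomycin none (0%, 97 at an unadjusted p under 0.05). After PBS, miR-196a-5p differed by 1.43 ± 0.54, R213G minus WT (unadjusted p = 0.0175, adjusted p = 0.717, limma), with overlapping groups, and genotype runs with tag order here. miR-10a-5p was -0.23 ± 0.12 (adjusted p = 0.827) and miR-10b-5p -0.32 ± 0.22 (adjusted p = 0.912). After bleomycin, miR-196b-5p was 0.60 ± 0.38 (adjusted p = 0.562, limma; 95% confidence interval -0.21 to 1.40) and miR-10a-5p -0.06 ± 0.11 (95% confidence interval -0.29 to 0.17). The interaction likewise called none (0%, 65 at an unadjusted p under 0.05), with miR-10a-5p at 0.17 ± 0.16, miR-10a-3p at -0.21 ± 0.16 and miR-10b-5p at 0.15 ± 0.30. A p that misses the threshold does not show that the genotypes had equal levels.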

How the data were processed

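Small RNA of whole lungs was sequenced by Illumina protocols from RNA purified on miRNeasy columns, per the labels' protocols. The submitters' processing notes name Bowtie2 2.3.2, SAMtools 1.9 and edgeR, and neither a genome build nor a miRBase release. The authors deposited log2 values per library. As inferred from the values, these are log2 of 1 plus a count scaled to a library size shared within a group. The library sums still differed within groups, for example from 2.07e+07 to 2.48e+07 equalized counts in WT PBS. Whether the shared size was the same in every group is not known. A bleomycin difference as deposited would carry any such offset between groups. The authors also deposited log2 fold changes, p-values and q-values of their own tests. Reads could not be recovered, so limma replaced the edgeR test planned for counts.

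limma 3.58.1 in R 4.3.3 was fitted to the deposited log2 values of the 15 libraries, with group means and a trend of variance on intensity. Figures and summaries used Python 3.11.15. miRNAs were kept when above 5 equalized counts in 3 or more libraries. Adjusted p-values are Benjamini-Hochberg over all 818 miRNAs of a contrast, and 6 contrasts were made, tag order in R213G being one of them. The fit was also run on simulated data with independent normal noise. Those data held no offset between libraries, no tag split and no single-read floor, so they do not bear on these features. Alternatives covered filter, scaling, pseudocount, trend, array weights, samples fitted, replicate block, tag term, threshold and each library left out. The members, lists and tests were chosen with earlier results of these data known. Named miRNAs were all members, miR-615, the miR-99 and miR-100 relatives, and the 3 miRNAs most correlated with each 5p member. Muscle and let-7 miRNAs came from marker lists.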

Additional observations from a re-analysis of the deposited data

Results flagged for a closer look

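Among the 18 groups of 4 libraries examined (6 tested members in the 3 groups of 4), 1 held a library far from the others. In WT bleomycin lungs, miR-10a-3p stood at 10.04 in replicate 3, against 10.17 to 10.20 in the other 3 libraries. Chance flags about 1 in 20 such groups.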

How the results depend on the processing

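Scaling bore most on the calls. The 4 calls among members in WT became 2 with equal library sums, and the 4 in R213G became 2 with quantile normalization and 1 with equal library sums. In R213G, miR-10a-5p was 0.041 with quantile normalization, which keeps only ranks. No other alternative except leaving out libraries moved the number of called members by over 1.5 times for the bleomycin contrasts. Leaving out each library left 2 to 4 called members in R213G, beside 289 to 342 called among all tested miRNAs.

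Values near 0 changed sign. The WT difference of miR-196b-5p was -0.060 with equal medians, -0.091 with quantile normalization, -0.022 with array weights, -0.089 without both PBS libraries numbered 3, and -0.10 to 0.36 with each library left out. In R213G it was -0.59 within the 4 lower-numbered libraries and -0.064 to 0.60 with each library left out. For R213G PBS against WT PBS, miR-10b-3p was -0.027 with quantile normalization, -0.27 with a tag term and -0.15 to 0.32 with each library left out. In the same contrast miR-10a-3p was -0.044 with a tag term and -0.040 to 0.13 with each library left out, and miR-196b-5p was -0.082 without both PBS libraries numbered 3. For R213G bleomycin against WT bleomycin, miR-196a-5p was 0.66 with a tag term, 0.040 with equal sums and -0.25 to 0.33 with each library left out. In that contrast miR-10a-5p was 0.041 with quantile normalization, which keeps only ranks, and 0.0056 with equal sums. In the interaction, leaving out each library gave -0.10 to 0.38 for miR-10b-5p and -0.12 to 0.54 for miR-196b-5p. The tag difference of miR-10a-5p was -0.17 to 0.024 with each library left out. The cause of these changes was not tested.

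R213G bleomycin against WT bleomycin called 2 miRNAs with array weights, 1 with a tag term and 0 to 1 with each library left out. The tag contrast, which called 2, called 1 without a filter, 1 with equal medians, 1 with equal sums, 0 with quantile normalization, 0 without a trend, 36 with array weights, 0 with the replicate block, 9 in the 8 R213G libraries alone, and 0 to 1 with each library left out. Array weights also called 1 member there, miR-196a-5p (-1.50, adjusted p = 0.0368).

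Same-numbered libraries of different groups were at most weakly alike: 9 of 21 such pairs had deviations correlated above 0.1 (range -0.14 to 0.26). Their median r was 0.065, against -0.019 for pairs with different numbers, which does not settle whether replicate numbers pair the libraries. With the replicate block, 4 members were called in WT and 4 in R213G, and 215 miRNAs in WT and 348 in R213G. The values of miR-196a-5p in WT PBS and of the 3p arms of miR-196 lie near that of a single read or below it. The part of depth in them was not tested.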

Other observations

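The 3 mesenchymal miRNAs, miR-199a-3p, miR-199a-5p and miR-214-3p, rose in each genotype (2 of them with equal medians), with a median difference of 0.44 in WT and 0.48 in R213G. Of 3 leukocyte miRNAs, 2 rose in WT and 1 in R213G, with none called lower under any scaling. Of 3 erythroid miRNAs, 2 fell in WT and 1 in R213G under every scaling. Of the 2 smooth muscle miRNAs, 1 fell in each genotype and none with equal sums. Of the 2 endothelial miRNAs, none passed in WT and 1 fell in R213G, whereas with equal sums 1 rose in each. The lymphocyte miRNA miR-150-5p did not pass in WT and fell in R213G, but not with quantile normalization. Of the 3 gut and kidney epithelium miRNAs, 1 fell in WT and 2 in R213G, against 0 and 1 with equal sums. The liver miRNA and the 2 brain miRNAs did not pass in either genotype.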
